A study of Mus musculus with 4 samples.

Results

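The Rhox genes are a cluster of homeobox genes on the mouse X chromosome, and they encode transcription factors made mainly in the testis, epididymis, ovary, placenta and embryonic stem cells. Their transcripts were followed on 4 Affymetrix arrays of mouse RNA, with 1 array for each group. The members were the genes that the annotation of the platform names Rhox5, Rhox6, Rhox9 and Rhox13, and every probe set with such a symbol was taken. This gave 4 genes, each with 1 probe set, among 18193 named genes and 45037 probe sets. The gene table of assembly GRCm38.p6 places 42 Rhox entries on the X chromosome, of which 33 are protein coding, and 29 of those have no named probe set and were not analysed here. The members were chosen with their values on these arrays known, so the values describe the arrays and nothing was tested.

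The groups were germline stem (GS) cells, multipotent germline stem (mGS) cells, R1, a line of embryonic stem (ES) cells, and GS cells of mice with a Trp53 knockout, whose title also carries the strain name ICR. GS cells are spermatogonial stem cells propagated from the testis, and mGS cells are cultures with properties of ES cells that arise from them. The labels give no genotype or strain for GS and mGS cells and no age or passage for any culture. GS and knockout GS cells were kept in a medium derived from StemPro-34, mGS and ES cells in an ES cell medium, so medium and cell type changed together. With a single culture and a single array in each group, the spread between replicates is unknown and no test was run. With so few arrays the precision is limited throughout.

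Rhox5, once called Pem, is the founding member of the cluster. It is known from Sertoli cells, where androgen drives it, and from placenta, early embryo and ES cells, and its promoter is a classical target of silencing by DNA methylation. Rhox6 and Rhox9, first named Psx1 and Psx2, are close paralogues of each other described in placenta and in germ cells of the embryo. Rhox13 is a germ cell gene of the cluster, described in spermatogonia and as responsive to retinoic acid.

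Signals are quantile normalised intensities. The array median, a signal of 82.7, was used as a floor, and where a value fell under it the fold difference is a lower bound, written with "at least". The labels were checked against marker genes. From GS to mGS, 9 of 12 GS cell markers were lower by 2-fold or more, and 11 of 12 pluripotency markers were higher by that much. The GS cell markers Etv5 and Sall4 went the other way, higher by 3.25-fold and 2.09-fold, and the pluripotency marker Tcl1 was lower by 3.58-fold. No GS cell marker was under the floor on the GS array and no pluripotency marker was under it on the mGS and ES arrays. Passing the floor did not separate the groups, however. Of the 12 GS cell markers, 10 also passed it in mGS cells and 10 in ES cells. Of the 12 pluripotency markers, 9 passed it in GS cells and 9 in knockout cells. The signal of Trp53 was not analysed here, so the knockout label was not checked. The median signal of the dap control probe sets was 271 for GS, 255 for mGS, 3055 for knockout and 2545 for ES cells, so every pair of arrays other than mGS with GS and ES with knockout joins a low and a high value of it. Such pairs include the ES to GS and mGS to knockout pairs of the division of germline from pluripotent cultures.

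The promoters of Rhox5 and Rhox13 are shown first, and the other members were not in the promoter table. With values raised to the floor, Rhox5 and Rhox13 had the widest ranges of the members. Rhox5 was highest on the mGS array and Rhox13 on the GS array. The sequences are from RefSeq on GRCm38.p6 and run 5′ to 3′ over the 250 bases before the annotated start. The Rhox5 stretch is chrX:37754358-37754607 and the Rhox13 stretch is chrX:38120590-38120839, both on the plus strand. Capitals mark CG dinucleotides, the androgen receptor core AGAACA and the ETS core CCGGAA on either strand.
Rhox5: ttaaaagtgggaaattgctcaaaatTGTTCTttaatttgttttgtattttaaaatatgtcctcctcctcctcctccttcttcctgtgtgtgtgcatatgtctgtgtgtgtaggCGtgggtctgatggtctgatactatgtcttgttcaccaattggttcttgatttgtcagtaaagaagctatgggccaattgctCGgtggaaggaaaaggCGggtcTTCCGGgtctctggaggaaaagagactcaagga
Rhox13: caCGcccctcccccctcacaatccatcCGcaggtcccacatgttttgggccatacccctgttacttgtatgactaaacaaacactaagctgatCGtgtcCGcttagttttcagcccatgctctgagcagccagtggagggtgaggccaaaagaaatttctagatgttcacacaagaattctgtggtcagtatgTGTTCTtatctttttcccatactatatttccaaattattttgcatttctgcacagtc

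Both stretches held 4 CG dinucleotides, where the median over 32851 mouse promoters of this length was 6 and 44.4% held 4 or fewer. Both held AGAACA once, on the minus strand, 225 bases before the start of Rhox5 and 57 before that of Rhox13 (first base of the match), a motif found in 16.1% of promoters. CCGGAA lay once in the Rhox5 stretch, 33 bases before the start and over the last of its CG dinucleotides, and not in the Rhox13 stretch, with 12.0% of promoters holding it. The E-box CACGTG, the nuclear receptor core AGGTCA, the motif GCGGGA and the TATA box TATAAA were in neither stretch, against 6.02%, 14.0%, 16.9% and 12.4% of promoters. These are matches of letters, searched on both strands, and not binding sites. Rhox5 is known to be transcribed from a distal and a proximal promoter, and only the stretch before the annotated start is shown. Rhox6 and Rhox9 were not in the promoter table.

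Rhox5 was measured only in the pluripotent cultures. Its signal was 7866 in mGS cells and 1624 in ES cells, and it lay under the floor in both GS cultures, at 59.3 in GS and 55.1 in knockout cells. The mGS value was higher than that of 98.1% of all probe sets on its array. Against either GS array the mGS signal was higher by at least 95.2-fold and the ES signal by at least 19.6-fold, and no difference could be given between the GS arrays. Between the pluripotent cultures, where both values were measured, the ES signal was 4.84-fold below the mGS signal. Of 10185 genes measured on both arrays, 31 others, or 0.304%, were lower on the ES array by as much.

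Rhox6 was also highest in the pluripotent cultures. It read 651 in mGS, 413 in ES, 83.6 in knockout and 2.56 in GS cells. The knockout value was barely above the floor, by 1.01-fold, and the GS value far under it. The mGS signal was above the knockout by 7.78-fold and above GS by at least 7.87-fold. The ES signal was above the knockout by 4.94-fold and above GS by a log2 difference of at least 2.32. The mGS and ES arrays lay within 2-fold of each other, with ES lower by 1.57-fold.

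Rhox9 followed the same order of arrays as its paralogue. It read 574 in mGS, 390 in ES and 133 in knockout cells and 55.8, under the floor, in GS cells. The knockout array thus lay between the GS array and the pluripotent cultures. The mGS signal was above the knockout by 4.30-fold and above GS by at least 6.94-fold. The ES signal was above the knockout by 2.92-fold and above GS by at least 4.71-fold. ES was lower than mGS by 1.47-fold, within the 2-fold taken as a difference here. Probe sequences were not used here, so it was not tested how far the Rhox6 and Rhox9 probe sets read each other's RNA.

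Rhox13 was highest in the GS culture. It read 5627 on the GS array, 1232 on the knockout array, 1004 on the mGS array and 66.4, under the floor, on the ES array. The GS value was higher than that of 97.1% of probe sets on its array. The mGS signal was 5.61-fold and the knockout signal 4.57-fold below GS, and the ES signal at least 68.1-fold below it. The knockout and mGS arrays, from cultures in different media, differed by 1.23-fold. The mGS array still read 12.1-fold over the floor, so the ES signal was at least 12.1-fold lower than the mGS signal.

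**Figure D1:**
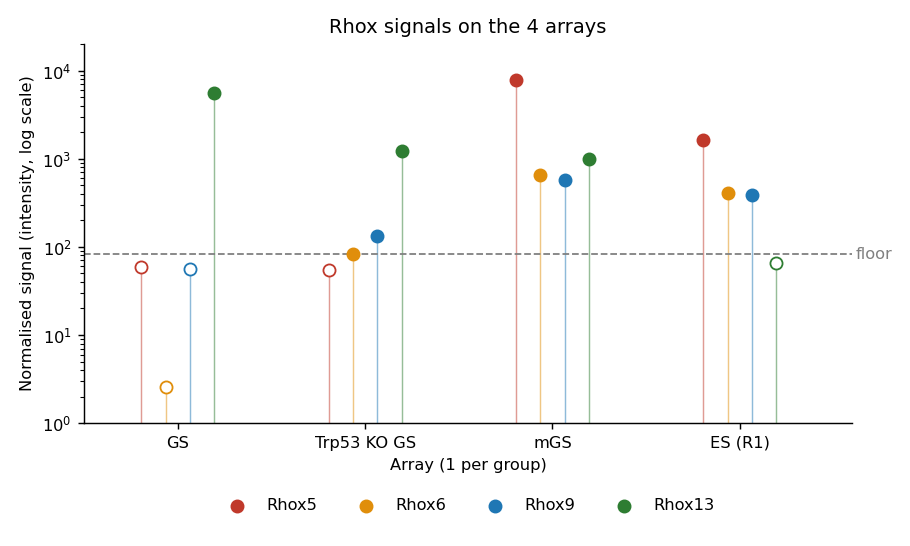
Normalised signal (log axis) of the 4 Rhox probe sets on the 4 arrays, 1 array per group, with filled points at or above the floor of 82.7 (dashed) and open points under it. Rhox5 is above the floor on the mGS and ES arrays only, Rhox6 and Rhox9 peak on the mGS array at 651 and 574, and Rhox13 falls from 5627 on the GS array to 66.4 on the ES array.

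In the comparison of mGS with GS cells, which the series sets up to look for candidate molecules of the change from GS to mGS cells, 3 of the 4 genes were 2-fold or more higher in mGS cells and 1, Rhox13, was lower by that much. Over all 11981 genes compared, 15.3% were higher and 16.5% lower by 2-fold or more. The 3 higher genes had the GS array under the floor, so their differences are bounds, 6.57 for Rhox5, 2.98 for Rhox6 and 2.80 for Rhox9 on the log2 scale. The Rhox13 difference of -2.49 was measured on both sides, and 168 others of 9635 genes so measured, or 1.74%, were lower by as much. In bulk RNA, fewer cells with a transcript and less transcript per cell cannot be told apart.

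With 2 arrays of each kind, the division of pluripotent (mGS, ES) from germline (GS, knockout GS) cultures can be described through all 4 cross pairs. Rhox5, Rhox6 and Rhox9 were higher in every cross pair. In the closest pair the difference was 4.94-fold for Rhox6, 2.92-fold for Rhox9 and at least 19.6-fold for Rhox5. Among the 12897 genes that passed the floor on any array, 7.65% were higher and 8.38% lower by 2-fold or more in all cross pairs. Without regard to size, 26.9% were higher and 31.8% lower with no overlap. Rhox13 was lower in every cross pair, but its closest pair, mGS and knockout, was 1.23-fold apart, so it was not among the genes that divided the cultures by 2-fold. Between ES and GS cells 3 Rhox genes were higher and 1 lower by 2-fold or more, against 17.4% and 17.2% of 12107 genes. Between mGS and knockout cells 3 were higher and none lower, against 17.3% and 21.7% of 12202, and between ES and knockout cells 3 were higher and 1 lower, against 18.8% and 21.5% of 12325. These comparisons share arrays. The arrays of a side are different groups and no replicates.

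In the comparison of ES with mGS cells, 2 of the 4 genes, Rhox5 and Rhox13, were lower in ES cells by 2-fold or more and none was higher, against 5.13% lower and 6.9% higher of 11816 genes. Rhox6 and Rhox9 had log2 differences of -0.65 and -0.56. Fibroblast markers moved the other way: 13 of 14 compared, out of 15 listed, were higher in ES cells by 2-fold or more, with 8 above the floor in mGS and 14 in ES cells. Their summed signal was 3957 in GS, 6971 in knockout, 19830 in mGS and 68933 in ES cells, and Lum was under the floor on all arrays. Most of the mGS sum came from Fn1, at 10096, and Vim, at 7871. Between mGS and GS, 9 of these markers could be compared, with 4 higher and 1 lower by 2-fold or more. Col1a1 read 283 in GS and 245 in mGS cells. Of 12 pluripotency markers, 10 lay within 2-fold and 2 were lower on the ES array, with a median log2 difference of -0.16. The part of fibroblast RNA in the Rhox differences was not tested.

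In the comparison of Trp53 knockout with GS cells, Rhox13 was the only Rhox gene at least 2-fold apart and was lower, with a log2 difference of -2.19, measured on both arrays. Over 11623 genes, 6.93% were lower and 9.77% higher by 2-fold or more, or 9.21% and 7.2% with arrays centred on their medians, which moved the median of all genes by -0.16. Lower by as much as Rhox13 were 55 others of 10141 genes, or 0.542%. Of 12 GS cell markers, 5 were lower by 2-fold or more in the knockout cells and none was higher, and their part in the Rhox13 difference was not tested. Rhox6 and Rhox9 had log2 bounds of 0.02 and 0.69, which reached 1.48 and 1.26 with the floor at the 30th percentile. Both differences rest on GS values under the floor, so whether they reach 2-fold depended on where the floor was set. Hybridisation controls also differed, with a median bio control signal of 709 on the knockout array and 2653 on the GS array, and their part in the differences was not tested.

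**Figure D2:**
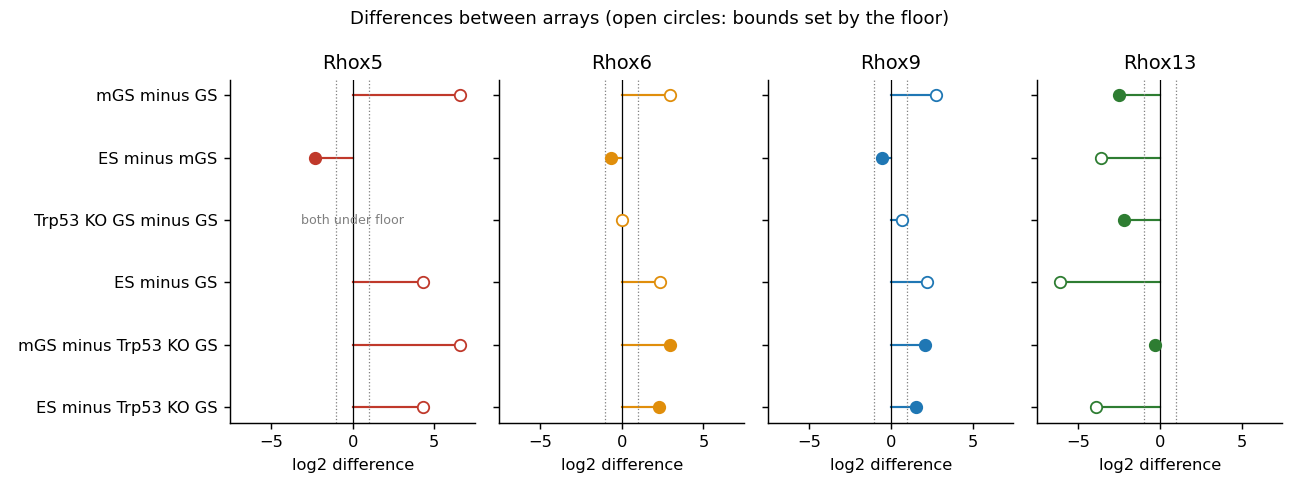
Log2 difference between each pair of arrays for each Rhox gene, with filled circles where both arrays were at or above the floor, open circles for bounds against the floor and dotted lines at 2-fold. Rhox5, Rhox6 and Rhox9 lie to the right in the 4 comparisons of a pluripotent with a germline culture, and Rhox13 lies to the left in all 6, by -0.30 between mGS and the knockout.

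The order of the arrays differed between Rhox5 and Rhox13. Rhox13 fell short of GS by 2-fold or more in mGS cells, and again from mGS to ES cells, as did 64 of 12897 genes, 0.496%, with it included. With the step from GS to knockout cells added, 10 genes, 0.0775%, were left. They included Rhox13 itself, Sycp1, of the synaptonemal complex, and Sohlh2, a transcription factor of differentiating spermatogonia. The rest were Usp26, Efhc2, Kif26a, Hs3st3b1, Ppp2r2c, Slc41a1 and Slc47a1. Rhox5 was higher in mGS than in GS cells and lower in ES than in mGS cells by 2-fold or more each, as were 277 genes, 2.15%, with it included. These patterns were singled out after the values were seen.

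Likeness of pattern was measured as the root mean square distance over the 4 arrays between floored log2 values, each gene centred on its own mean, among 7095 genes with a range of at least 1. Nearest to Rhox5 were Tfpi, a coagulation inhibitor, at 0.17, the oocyte gene Ooep at 0.35 and the pluripotency factor gene Nanog at 0.56. Ctnnal1 and Eras, a Ras gene of ES cells, followed at 0.61. Tfpi read 79.7 in GS, 37.9 in knockout, 6665 in mGS and 1915 in ES cells, with the GS and knockout values under the floor. Only Tfpi and Ooep lay within 0.5 of Rhox5.

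Nearest to Rhox13 were Usp26, an X-linked deubiquitinase gene of the testis, at 0.53, and Efhc2 at 0.67. Sohlh2, Kif26a and Pnma5 followed at 0.70, 0.75 and 0.88, and no gene lay within 0.5. Usp26 read 3169 in GS, 903 in knockout, 369 in mGS and 11.1 in ES cells, with the last under the floor.

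The patterns of Rhox6 and Rhox9 were common on these arrays. Within 0.5 lay 321 genes for Rhox6 and 449 for Rhox9. Nearest to Rhox6 were Pcsk1n, Rab27a, Map1b, Adat2 and Glod5, at 0.02 to 0.07, and nearest to Rhox9 Got1, Mindy1, Kat6b, Miga1 and Etfb, at 0.08 to 0.11. Pcsk1n, Rab27a, Map1b and Glod5 were under the floor in GS and knockout cells. Rhox6 was under it in GS cells and 1.01-fold over it in knockout cells. Their closeness to Rhox6 on those arrays was thus set largely by the floor. Rhox6 and Rhox9 were 0.34 apart, and 110 genes were nearer to Rhox6 than Rhox9 was. Rhox5 was 1.51 from Rhox6 and 1.76 from Rhox9, and Rhox13 was 3.06 or more from each of the other members.

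**Figure D3:**
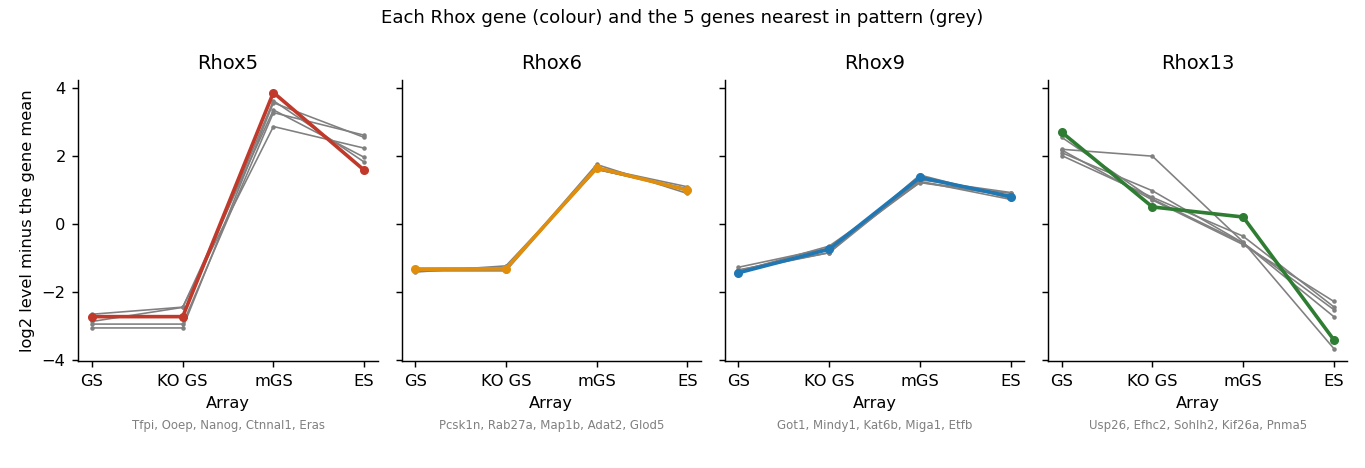
Floored log2 level minus the gene's own mean on each array (KO GS: Trp53 knockout GS) for each Rhox gene in colour and its 5 nearest genes in grey. The nearest genes overlie Rhox6 and Rhox9 within 0.11 and stand farther from Rhox13, between 0.53 and 0.88.

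Genes beside the cluster did not rise from GS to mGS as far as Rhox5, Rhox6 and Rhox9. None of the 10 named genes on either side fell as far as Rhox13, at -2.49. Il13ra1 and Zcchc12, from a separate list of flanking genes, fell further, with log2 differences of -2.85 and -2.65. The members were chosen with their values known and the neighbours were not, so this is a description and no test. In the gene order of GRCm38.p6, the 10 named genes before and the 10 after the Rhox members had log2 differences of mGS against GS from -2.16 to 1.61, over 16 compared, with 4 higher and 3 lower by 2-fold or more. Between ES and mGS, 1 of 16 was lower and none was higher by that much. Between knockout and GS, 4 of 16 were lower and none was higher. Of 20 measured genes of a list of flanking genes, 18 could be compared between mGS and GS, and 5 were higher and 6 lower. The largest differences were those of the cytokine receptor gene Il13ra1, 7.23-fold, Zcchc12, 6.26-fold, Zbtb33, the gene of a protein that binds methylated DNA, 4.47-fold, and the lysosomal membrane gene Lamp2, 3.98-fold, all lower on the mGS array. On the knockout array 2 of 18 of these genes were lower than on the GS array and none higher, and on the ES array none of 17 differed by 2-fold from mGS. The other 613 measured X-linked genes had a median log2 difference of 0.02 between mGS and GS over 404 compared, beside -0.04 over all genes.

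**Figure D4:**
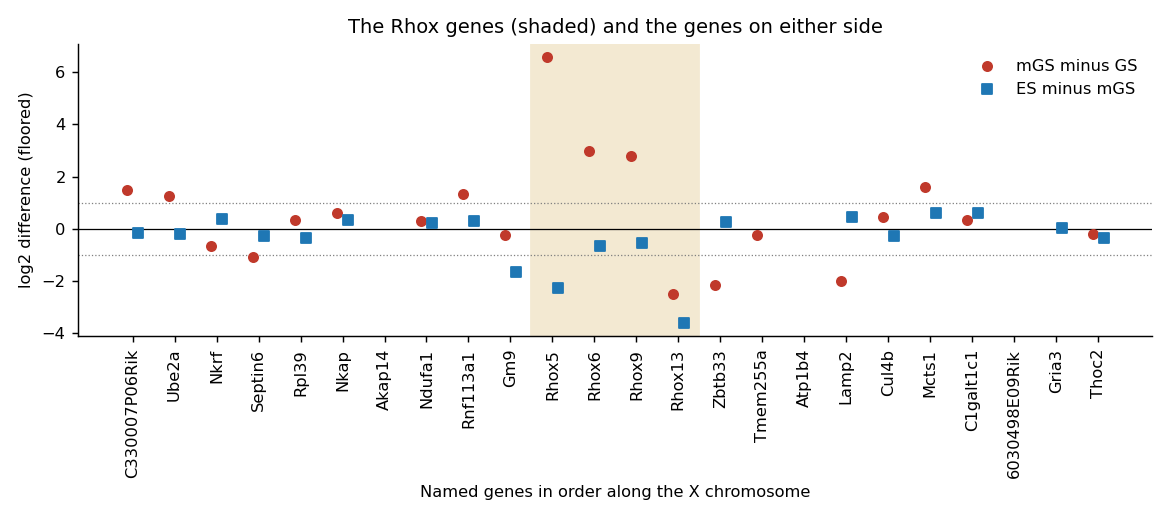
Log2 difference of mGS against GS (circles) and of ES against mGS (squares) for the 4 Rhox genes (shaded) and the 10 named genes on either side in chromosomal order, with dotted lines at 2-fold and no point where both arrays were under the floor. Rhox5, Rhox6 and Rhox9 reach 6.57, 2.98 and 2.80, where the neighbours lie between -2.16 and 1.61.

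Other X-linked germ cell genes went the way of Rhox13 between mGS and GS. Of the 16 that could be compared, 11 were lower and none was higher by 2-fold or more in mGS cells. Their median log2 difference was -3.42, beside -0.04 over all genes. The mRNA export gene Nxf2 was lower by at least 103-fold, Tktl1, which encodes a transketolase-like protein, by at least 77.5-fold, and the transcription factor subunit genes Taf9b and Taf7l by at least 76.5-fold and by 65.9-fold. In knockout against GS cells, 2 of 18 were lower and 2 higher, and the 4 named genes lay within 2-fold. Usp26 and Magea5 were the lower genes, by 3.51-fold and 3.73-fold, and Esx1 and Tex16 the higher ones, by 4.28-fold and 2.04-fold. Between ES and mGS, 3 of 9 were lower and none higher.

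Genes of DNA methylation and of repression, which bear on Rhox5 as background, went both ways. Of 25 compared between mGS and GS, 5 were higher and 6 lower by 2-fold or more in mGS cells, with a median of -0.32. Beside this and the other lists, 15.3% of all genes were higher and 16.5% lower by that much between mGS and GS. The shares were 6.9% and 5.13% between ES and mGS, and 9.77% and 6.93% between knockout and GS. Dnmt3l, a cofactor of the de novo methyltransferases, was at least 117-fold higher, the dioxygenase gene Tet1 at least 67.5-fold, its relative Tet2 20.9-fold, and the methyltransferase gene Dnmt3b 3.82-fold. The maintenance methyltransferase gene Dnmt1 had a log2 difference of -1.36 and its partner gene Uhrf1 one of -1.39, and the remodeller gene Hells, known for silencing in development, one of -1.55. Ehmt2, a histone H3K9 methyltransferase gene, was 1.68-fold lower on the mGS array. Between ES and mGS, where Rhox5 differed 4.84-fold, 1 of 24 of these genes was 2-fold apart, Tet2, 2.37-fold lower on the ES array. On the knockout array 3 of 23 were higher and 1, Uhrf1, lower than on the GS array.

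Of 11 measured genes described for the Rhox5 promoters, 10 could be compared between mGS and GS, and 2 were lower on the mGS array and none higher. Those were Ets1, 2.84-fold, and the Sertoli factor gene Sox9, at least 2.09-fold. Wt1 and the glucocorticoid receptor gene Nr3c1 had log2 differences of 0.87 and -0.48. The ETS factor gene Gabpa read 1639 in GS, 1441 in knockout, 1551 in mGS and 1128 in ES cells, all within 2-fold of each other. On the ES array Wt1 was the only gene of 11 2-fold apart from mGS, and it was lower. On the knockout array 1 of 9, Ets1, was higher than on the GS array, 3.45-fold. Of 11 markers of Sertoli cells, a source of Rhox5 in the testis, 5 were under the floor on all arrays, among them Amh and Fshr. The summed signal of 11 Sertoli markers ran from 653 on the knockout to 2367 on the ES array. On mGS against GS, 2 of 5 compared were higher, Inhbb by at least 11.6-fold and Clu by 3.56-fold, and 1, Sox9, was lower. Inhbb, under the floor in both GS cultures like Rhox5, read 957 in mGS and 1389 in ES cells. The part of Sertoli RNA in the Rhox5 differences was not tested.

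Genes of retinoid signalling and early spermatogonial differentiation, which bear on Rhox13 as background, were lower in part. Of 15 compared between mGS and GS, 7 were lower and 2 higher by 2-fold or more in mGS cells, with a median of -0.80. The spermatogonial transcription factor gene Sohlh1 was at least 12.8-fold, the retinoid carrier gene Crabp2 8.37-fold, the sex determination factor gene Dmrt1 6.79-fold and the retinoic acid target Stra8 at least 4.70-fold lower, and the receptor gene Kit was higher by at least 8.47-fold. In knockout cells, where Rhox13 was lower, 2 of 14 were lower and 4 higher than on the GS array. Stra8, which read 389 in GS and 2794 in knockout cells, was 7.19-fold higher there, opposite to Rhox13, and Crabp2 was 2.80-fold lower. Between ES and mGS 3 of 13 were lower and 2 higher, and Dmrt1 was 2.50-fold lower.

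Rhox6 and Rhox9 are known from germ cells of the embryo and from placenta. Of 18 primordial germ cell genes compared between mGS and GS, 10 were higher and 7 lower on the mGS array, among them Dppa2, 26.8-fold, and Tfap2c, at least 25.7-fold, higher, and Dazl and Sycp3, 45.2-fold and 35.0-fold lower. On the knockout array, 7 of 16 were higher and 1 lower than on GS, and between ES and mGS 1 of 19 was higher and 5 lower. Of 10 trophoblast genes compared between mGS and GS, 2 were higher and none lower on the mGS array, the keratin genes Krt8 and Krt18, 7.43-fold and 4.32-fold, and the trophoblast factor genes Cdx2 and Elf5 were under the floor on all arrays. Eomes, under the floor on the GS array, had a log2 difference of at least 0.82, and Ascl2 one of 0.89. Of 10 primitive endoderm genes, 5 were higher and 3 lower, among them Sparc, 12.2-fold, and Lama1, 7.55-fold, higher, and Foxa2, at least 8.29-fold, lower. Afp read 2646 on the GS array and was under the floor on the mGS array.

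Of 25 other paired-like and divergent homeobox genes, 15 reached the floor on at least 1 array. On both arrays of the mGS and GS comparison, 13 of the 25 were under it. Of the 12 compared, 3 were higher and 1 lower on the mGS array. Nanog was at least 97.3-fold, Otx2 at least 13.2-fold and Hopx 2.60-fold higher, and Prrx2 at least 4.74-fold lower. Leydig cell and leukocyte markers had summed signals of at most 529 and 1422 on any array, with 1 of 2 and 2 of 3 compared higher on mGS than GS and none lower. Both highest sums were those of the mGS array, where Cyp11a1 read 329 and Cd68 read 970. The Leydig markers Cyp17a1, Hsd3b1 and Nr5a1 and the leukocyte markers Ptprc, Tyrobp and Fcer1g were under the floor on all arrays. The part of Leydig cell and leukocyte RNA in the Rhox differences was not tested.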

How the data were processed

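RNA of 4 cultures was labelled as biotinylated cRNA, per the labels' protocols. The authors deposited 1 linear intensity per probe set and array, with a trimmed mean of 500 on every array (2% cut at each end); the summarising software and genome build are not given in the sources used here. Of 45101 probe sets, 64 controls were set aside. Log2 intensities were quantile normalised over the 4 arrays, values under the array median were raised to it, and a gene took its probe set with the highest mean. The platform listing names 34958 probe sets with 1 symbol and 932 with several, which were left out. Updated names came from the gene table of GRCm38.p6, which matched 34754. Named were all Rhox probe sets, the 5 genes nearest each in pattern, up to 4 genes per list by size between mGS and GS, and described regulators. Exceptions are stated. Members and lists were chosen with earlier results of these data known. Steps were tested on simulated data. Python 3.11.15, numpy 2.4.6, pandas 2.3.3 and matplotlib 3.10.9 were used. Alternatives were the deposited values, median centring, other floors, a pseudocount of 32, probe sets free of cross-hybridisation marks and a 4-fold threshold.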

Additional observations from a re-analysis of the deposited data

How the results depend on the processing

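No paired analysis was possible because each group has 1 array. Of 159 values of single Rhox differences under the alternatives, 133 moved by less than the spread of differences over probe sets, 26 moved more and 0 reversed. The 133 include values that could not move. Leaving out probe sets with cross-hybridisation marks left every Rhox value unchanged. Differences measured on both arrays stay the same with a lower floor or none. The number of Rhox genes higher by 2-fold in knockout than in GS cells was 0, and became 2 with a floor at the 30th percentile, 2 with no floor and 1 with a pseudocount of 32. With a floor at the 60th percentile the log2 bounds against GS were smaller, for mGS 5.68 for Rhox5, 2.08 for Rhox6 and 1.90 for Rhox9, and for ES 3.40, 1.43 and 1.34, with -5.19 for Rhox13, and the counts of Rhox genes 2-fold apart were as before. With no floor the Rhox6 log2 difference was 7.99 for mGS and 5.03 for the knockout against GS, and it rests on a GS signal of 2.56. With no floor, 3999 genes were higher and 4021 lower between mGS and GS (1838 and 1976 with the floor), 2747 and 2574 between ES and mGS (815 and 606), and 3166 and 2597 between knockout and GS (1135 and 805). With the 30th percentile floor they were 1397 and 1167 between ES and mGS, and 1759 were higher between knockout and GS. Signal near the floor limits Rhox5, Rhox6 and Rhox9 in GS cells and Rhox13 in ES cells to bounds.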
